A study of Mus musculus with 65 samples.

Results

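The retinas of mice fed the CSF1R inhibitor PLX5622 for 2 days were compared with those of mice on control diet. The comparison was made on bulk RNA-seq read counts per gene. Its members are 9 of the 65 mice of the series, grouped by their sample labels. The 4 treated mice form the group called DEP2 here (day 2 of depletion, labelled PLX2). The 5 control mice form the group CD. All 9 were adult wild-type C57BL/6J mice, the treated mice on AIN-76A diet formulated with PLX5622 and the controls on the same diet without it (vehicle in the labels). RNA was taken from homogenised retina (how many retinas per sample is not given in the sources used here), so a lower value of a microglial gene can mean fewer cells or less RNA per cell, which cannot be told apart in these data. Later depletion groups of the same series (DEP5, DEP7, DEP10, DEP14 and DEP21, named for the day) were used to see what was still present on day 2.

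Microglia are the resident macrophages of the retina and sit mainly in its synaptic layers. They depend on signalling through the receptor tyrosine kinase CSF1R, whose ligands are the growth factors CSF1 and IL-34, and inhibitors of its kinase remove them within days. Microglia make the C1q chains of the classical complement pathway and carry receptors such as CX3CR1 and P2RY12. Their identity is kept by transcription factors that include PU.1, IRF8 and SALL1.

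The total count per mouse lay between 7468474 and 8570563 (median 7935423), and 29338 genes had a read in at least 1 of the 9 mice. Many microglial genes therefore had few reads in a mouse, and intervals given below for summed reads cover counting error only. Levels are given as CPM, the reads of a gene per 1000000 reads of a library size scaled by the TMM method, so that they differ slightly from reads over the total count. Sample titles end in RE or re, a mark that the labels do not explain. CD held 3 RE and 2 re mice, DEP2 held 3 RE mice and 1 re mouse, and on the first principal component of 12316 expressed genes (49% of the variance over CD and all depletion mice) every re mouse lay apart from every RE mouse. The suffix was therefore a term of the model, and 190 of 23946 genes differed between suffixes at the threshold used for treatment. The labelled tissue was met in every sample, as the 20 rod genes listed summed to 71100 to 81300 CPM in CD and 73700 to 80900 CPM in DEP2. The labels do not explain the M of CD mouse 2M either. The same mark 2M stands in the labels of the mice of day 60 of repopulation, which are all re mice, as CD mouse 2M is. Whether this control differed from the others in age or time of sampling is not stated.

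The first question was which transcripts had already been lost after 2 days. Of 23946 genes tested with edgeR's quasi-likelihood test, 12 were lower in DEP2 (0.0501% of the genes tested) and 0 were higher (0%). The threshold was a Benjamini-Hochberg FDR under 0.01 and a change of more than 1 log2 unit. The genes that passed were Ctss, Laptm5, C1qb, Selplg, C1qc, C1qa, Cx3cr1, Tmem119, Siglech, Gm1821, Mpeg1 and Tyrobp. All but the pseudogene Gm1821 are genes that microglia express in the retina. At an unadjusted p under 0.05, 576 genes were lower (2.41%) and 494 were higher (2.06%), and the median log2 fold change over all tested genes was 0.00. With no fold threshold and an FDR under 0.05, 23 genes were lower (0.096%) and 3 were higher (0.0125%), the latter being Gfap, Fabp4 and Dct. Counts over gene lists below cover the 371 of 409 listed genes that were tested. At an unadjusted p under 0.05 they stand against 2.41% lower and 2.06% higher over all genes tested. A gene read mainly in 1 group could enter the test through that group alone. DESeq2 called 9 genes lower and 0 higher, and edgeR's likelihood ratio test called 21 lower and 1, Dct, higher. For Ctss, Laptm5, C1qa, C1qb, C1qc, Selplg and Cx3cr1 the call held under each of the 19 alternative fits, whereas Tyrobp and Mpeg1 held under 6, Gm1821 under 8, Siglech under 11 and Tmem119 under 16. Leaving out CD mouse 3, or comparing RE mice alone, left these 7 genes.

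**Figure D1:**
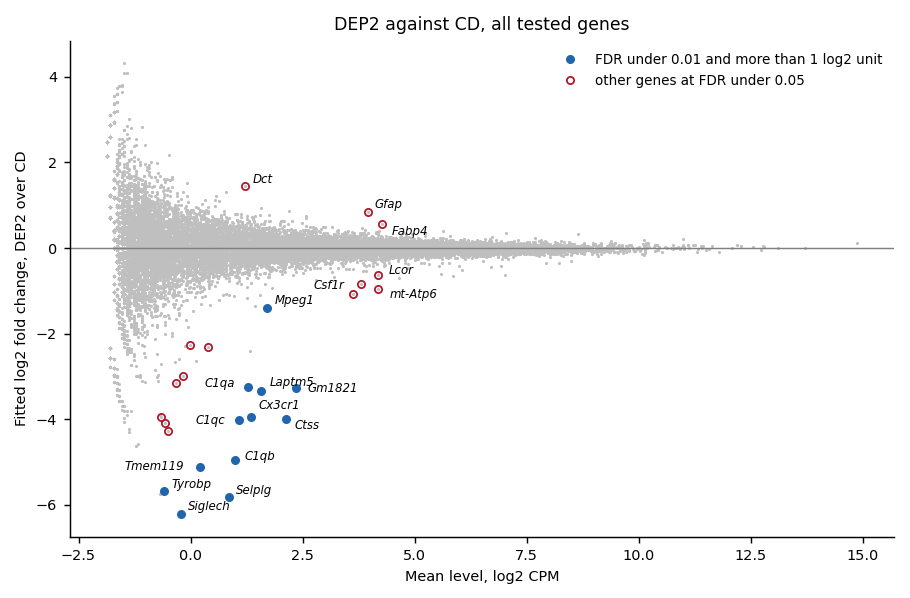
Fitted log2 fold change of DEP2 over CD (vertical axis) against mean level as log2 CPM (horizontal axis) for the 23946 tested genes. Filled points are the 12 genes called, all below zero, and open points are other genes at an FDR under 0.05, of which Gfap, Fabp4 and Dct lie above zero.

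The 3 C1q chains share 1 locus. C1qa, C1qc and C1qb lie next to each other on the minus strand of chromosome 4 (GENCODE M21, GRCm38), C1qa at 136895917 to 136898803, C1qc at 136889804 to 136893065 and C1qb at 136880129 to 136886187. Upstream sequences of called genes were searched for letters of a PU.1 motif, as PU.1 drives many genes of macrophages. RefSeq promoters were given for 7 of the 12 called genes (Ctss, Laptm5, C1qb, C1qc, Cx3cr1, Siglech and Mpeg1), and the 250 bases before the gene start were searched on both strands. The letters searched were GAGGAAGT, a PU.1 motif, and its core GAGGAA, which is contained in it. The core stood in 4 of the 7 windows, in those of Ctss, Laptm5, C1qb and C1qc, and in 23.3% of all 32851 promoters of the table. Over the promoters of tested genes the share was 22.7%. The longer form stood in 1 of the 7, that of C1qc, and in 2.44% of all promoters. A match is a run of letters and not a measured binding site. C1qb and C1qc share 1 locus, and microglial genes that did not fall were not searched as a set. Whether PU.1 had a part in the fall was not tested. The 4 windows with a match, from RefSeq on GRCm38.p6, are printed 5′ to 3′ on the strand of the gene, with the match on either strand in capitals (the longer form where present).
Ctss, chr3:95526536-95526785, plus strand: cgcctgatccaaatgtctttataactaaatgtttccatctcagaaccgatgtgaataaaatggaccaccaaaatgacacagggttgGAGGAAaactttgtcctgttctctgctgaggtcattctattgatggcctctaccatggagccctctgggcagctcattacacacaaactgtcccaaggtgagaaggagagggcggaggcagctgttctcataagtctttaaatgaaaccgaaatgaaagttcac
Laptm5, chr4:130913066-130913315, plus strand: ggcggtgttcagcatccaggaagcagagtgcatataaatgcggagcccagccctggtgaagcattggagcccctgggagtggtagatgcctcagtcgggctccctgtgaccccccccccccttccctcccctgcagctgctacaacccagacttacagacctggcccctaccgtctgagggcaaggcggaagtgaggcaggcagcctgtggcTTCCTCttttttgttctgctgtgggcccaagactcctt
C1qb, chr4:136886201-136886450, minus strand: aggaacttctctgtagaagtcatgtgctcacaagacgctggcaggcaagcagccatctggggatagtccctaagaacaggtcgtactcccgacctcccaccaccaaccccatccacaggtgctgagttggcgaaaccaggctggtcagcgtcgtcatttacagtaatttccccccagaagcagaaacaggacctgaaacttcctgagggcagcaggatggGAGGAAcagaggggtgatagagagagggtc
C1qc, chr4:136892915-136893164, minus strand: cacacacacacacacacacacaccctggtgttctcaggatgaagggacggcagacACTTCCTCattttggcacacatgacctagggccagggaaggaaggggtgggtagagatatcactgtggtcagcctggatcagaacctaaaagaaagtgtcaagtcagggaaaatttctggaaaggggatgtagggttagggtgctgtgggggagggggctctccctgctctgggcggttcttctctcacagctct
In Ctss the match begins 164 bases before the gene start and in C1qb 30 bases before it. In Laptm5 and C1qc it is on the opposite strand, and the core begins 38 and 193 bases before the start. RefSeq puts the start of C1qc further inside the gene than GENCODE, so that its window overlaps the GENCODE gene.

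The 3 C1q chains fell to between 2.99 and 10.1% of the control rate, taken as reads per total reads over each group. C1qa, the A chain, had 21, 36, 24, 33 and 32 reads in CD mice 1, 2, 3, 4 and 2M (this order is kept below) and 3, 2, 5 and 2 reads in DEP2 mice 1 to 4. The highest treated mouse was at 5 reads and the lowest control at 21, and the fit gave a log2 fold change -3.26 ± 0.35 (SE), FDR = 1.8e-07. C1qb had 22, 27, 27, 36 and 12 reads in CD and 0, 1, 2 and 0 in DEP2, with 2 treated mice at zero (log2 fold change -4.95 ± 0.48 (SE), FDR = 4.3e-08). C1qc had 16, 27, 19, 39 and 27 reads in CD and 2, 1, 1 and 2 in DEP2 (log2 fold change -4.03 ± 0.42 (SE), FDR = 1.6e-07). Each chain was therefore lower in all 4 treated mice than in any control. C3, the component on which the complement pathways meet, did not pass the test, with 20, 14, 19, 16 and 5 reads against 13, 13, 12 and 13 (95% interval of the log2 fold change -0.85 to 0.36). The receptor C3ar1 had at most 4 reads in any of the 9 mice, and C5ar1 was below the detection filter. Over the list of C1q chains, C3 and receptors, 3 of 5 tested genes were lower at an unadjusted p under 0.05 and 0 higher.

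Surface receptors of resting microglia fell in the same 4 mice. Of the 15 homeostatic receptor and surface genes tested, 4 were called lower, 12 were lower at an unadjusted p under 0.05 and 0 were higher, with a median log2 fold change of -3.90 (-2.98 when genes without a read in DEP2 are put at their bound). In 10 of them every DEP2 mouse was below every CD mouse in CPM, compared with 0.606% of all genes tested. Cx3cr1, the receptor for the neuronal chemokine fractalkine, had 27, 29, 15, 59 and 29 reads in CD and 2, 1, 1 and 4 in DEP2 (log2 fold change -3.94 ± 0.44 (SE), FDR = 5.2e-07). Selplg, a ligand for selectins, had 31, 19, 20, 20 and 21 reads in CD and a single read in DEP2, in mouse 4. Summed over each group this was 1 against 111 reads, or 1.11% of the control rate (95% exact interval 0.0279 to 6.33%; log2 fold change -5.83 ± 0.58 (SE), FDR = 4.3e-08). Selplg and its neighbour on chromosome 5, the microglial marker Tmem119, both fell. Tmem119 had 14, 12, 14, 11 and 14 reads in CD and also 1 read in DEP2 (FDR = 1.5e-05). Tmem119 was no longer called when RE mice alone were compared.

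The lectin Siglech had 4, 8, 10, 12 and 10 reads in CD and none in any DEP2 mouse. Taking 3 reads over the whole DEP2 group as the floor, it was at least 11.9-fold lower (FDR = 0.00045). The purinergic receptor P2ry12, which guides microglial processes towards ATP, kept more of its reads than the genes above, with 8, 25, 9, 17 and 7 in CD and 3, 2, 4 and 2 in DEP2. It missed the threshold (log2 fold change -2.32 ± 0.44 (SE), FDR = 0.013) and passed it when mice were paired by replicate number (FDR = 0.0032). That pairing, here and below, is an assumption, as the labels do not say what the numbers mark. It also leaves out CD mouse 2M. The related receptor P2ry13 had 5, 7, 5, 8 and 5 reads in CD and 0, 1, 0 and 0 in DEP2 (FDR = 0.02), with no overlap. Itgam, which encodes CD11b, had 5, 4, 6, 8 and 4 reads in CD and 0, 0, 1 and 0 in DEP2 (FDR = 0.044), so that 8 reads at most stood behind a value and the threshold of 0.01 was not reached. The sialic acid-binding receptor Cd33 had 2, 15, 4, 6 and 5 reads in CD and 0, 0, 0 and 1 in DEP2 (FDR = 0.021). P2ry13, Itgam and Cd33 were each lower in every treated mouse than in any control. Gpr34, a lysophosphatidylserine receptor, had 6, 15, 7, 6 and 5 reads in CD and 2, 3, 5 and 0 in DEP2 (FDR = 0.73). The lowest CD mouse and the highest DEP2 mouse both had 5 reads, so the groups separated only after scaling to CPM.

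The list members with the most reads behaved otherwise. The integrin subunit Itgb5 had 35.4 ± 3.85 CPM (mean ± SD, n = 5) in CD and 33.4 ± 2.26 (n = 4) in DEP2 (95% interval of the log2 fold change -0.23 to 0.10). For the transporter Slco2b1 the levels were 6.89 ± 0.659 and 5.86 ± 0.831 CPM (95% interval of the log2 fold change -0.52 to 0.08). Olfml3 had an unadjusted p under 0.05 only (FDR = 0.81; 6.39 ± 1.63 against 4.64 ± 0.655 CPM). These genes supply most of the reads of the list, whose summed level stood at 70.6 ± 3.26% of the CD mean.

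Lysosomal genes split in the same way. Ctss, a cysteine protease of antigen-presenting cells, showed the smallest p of all genes, with 40, 60, 82, 69 and 30 reads in CD and 3, 4, 2 and 6 in DEP2 (log2 fold change -3.99 ± 0.28 (SE), FDR = 1.4e-11). Laptm5, a lysosomal membrane protein of leukocytes, had 40, 31, 37, 46 and 29 reads in CD and 5, 4, 3 and 2 in DEP2 (log2 fold change -3.35 ± 0.31 (SE), FDR = 1.9e-08). Both were lower in every treated mouse by a wide margin. Mpeg1, which encodes the pore-forming protein perforin-2, fell less, from 28, 35, 30, 38 and 37 to 12, 7, 20 and 12 reads (log2 fold change -1.40 ± 0.25 (SE), FDR = 0.0052), and lost its call in 13 of 19 alternative fits. Pld4 had 5, 12, 10, 13 and 6 reads against 1, 2, 4 and 1 (FDR = 0.044). The 4 genes of this list with the most reads did not differ detectably: Ctsb (95% interval of the log2 fold change -0.14 to 0.08), Cst3 (95% interval of the log2 fold change -0.24 to 0.02), Lgmn (95% interval of the log2 fold change -0.17 to 0.08) and Ctsd (95% interval of the log2 fold change -0.14 to 0.14), each above 100 CPM in both groups. In all, 6 of 14 lysosome and endosome genes were lower at an unadjusted p under 0.05 and 0 higher (median log2 fold change -0.28).

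**Figure D2:**
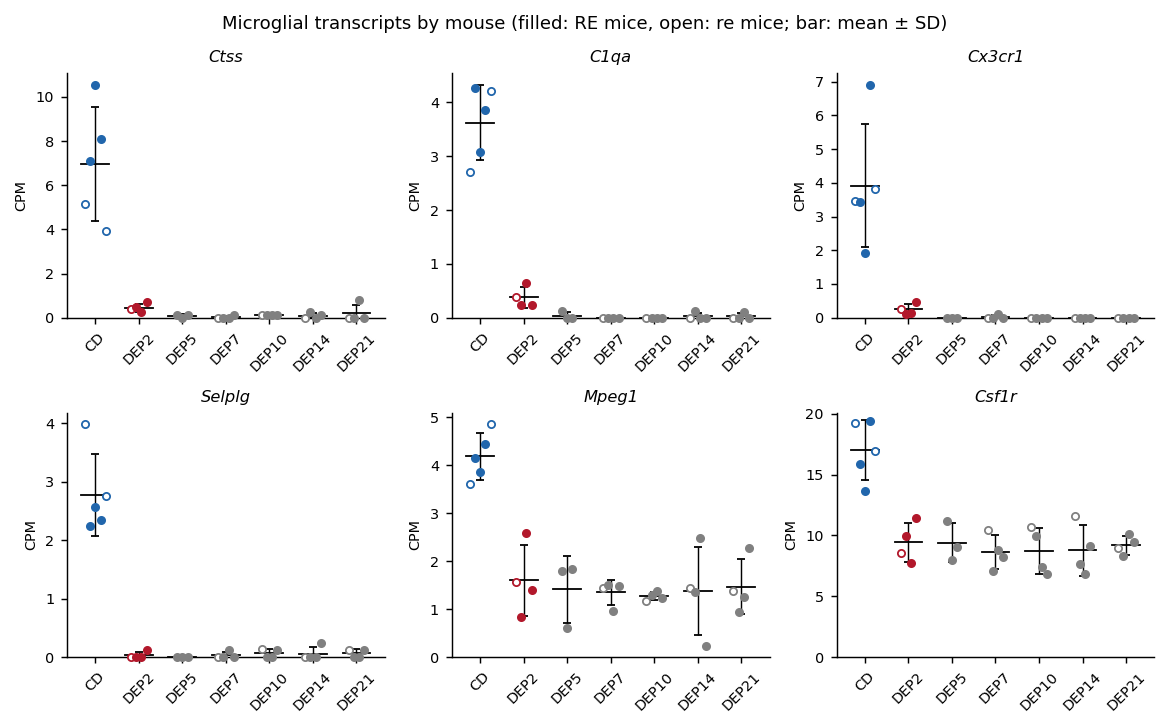
Level in CPM (vertical axis) of 6 microglial genes in each mouse of CD, DEP2 and the later depletion groups (horizontal axis). Points are mice, filled for RE and open for re, and bars give the mean ± SD. Ctss, C1qa, Cx3cr1 and Selplg are near zero from DEP2 on, whereas by these counts Mpeg1 and Csf1r fall by DEP2 to a level that stays. In FPKM little Csf1r remained.

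The drug target itself gave different answers in the 2 deposited tables. By read counts Csf1r had 150, 134, 106, 166 and 129 reads in CD and 66, 84, 60 and 98 in DEP2. Every treated mouse was below every control, yet 55.5% of the control rate remained (95% exact interval 48.4 to 63.6%). The fall passed the FDR but not the fold threshold (log2 fold change -0.84 ± 0.13 (SE), FDR = 0.0005). No further fall was detectable afterwards, with 52 to 89 reads in the 16 mice of DEP7 to DEP21 (median 72). In the authors' FPKM values (fragments scaled by gene length and sequencing depth, estimated with StringTie) Csf1r was 1.37, 1.4, 1.3, 1.81 and 1.5 in CD. It was 0.081, 0.145, 0.0891 and 0.047 in DEP2, which is 6.13% of the CD mean, and between 0 and 0.0686 in the later mice. The share of Csf1r that remained on day 2 thus differed between the tables, while for Ctss it was 6.59% by counts and 6.28% in FPKM. In the annotation Csf1r overlaps Mir6983 on its own strand and Hmgxb3 on the other, and the source of the remaining counts was not tested.

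Its partners and ligands followed 2 patterns. Tyrobp, the adaptor (DAP12) of TREM2 and other receptors, had 5, 8, 4, 9 and 4 reads in CD and none in DEP2, at least 8.1-fold lower against a floor of 3 reads over the group (FDR = 0.0066). Trem2 had 5, 2, 5, 11 and 3 reads in CD and 0, 1, 0 and 0 in DEP2, in the same direction but short of the threshold (FDR = 0.09). The ligand Csf1 had 55, 64, 51, 75 and 55 reads in CD and 59, 56, 67 and 52 in DEP2 (95% interval of the log2 fold change -0.34 to 0.24). For the other ligand, Il34, there were 43, 43, 27, 46 and 40 and 37, 47, 29 and 36 reads (95% interval of the log2 fold change -0.44 to 0.27). Neither ligand differed beyond the spread between mice, and a change of more than about 0.5 log2 units lay outside both intervals. Of the relatives of CSF1R, Flt3 had 35, 35, 34, 41 and 39 reads in CD and 20, 27, 23 and 28 in DEP2, with no overlap (log2 fold change -0.60 ± 0.19 (SE), FDR = 0.68), and Kit did not differ detectably (95% interval of the log2 fold change -0.48 to 0.14). The phosphatase Inpp5d kept 60.7% of its control rate (FDR = 1), and the cytokine receptor chain Csf2ra kept 84% (FDR = 1). Over this signalling list 8 of 13 genes were lower at an unadjusted p under 0.05 and 0 higher.

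Transcription factors and general leukocyte genes had few reads. Sall1, which keeps microglial identity, had 16, 15, 14, 14 and 15 reads in CD and 6, 6, 9 and 6 in DEP2 and did not pass after adjustment (log2 fold change -1.11 ± 0.32 (SE), FDR = 0.45). Irf8 had 18, 11, 20, 18 and 15 and 6, 7, 9 and 9 reads (log2 fold change -1.09 ± 0.31 (SE), FDR = 0.45). Neither gene overlapped between the groups, and Sall1 kept 45% and Irf8 46.7% of the control rate. Spi1, which encodes PU.1, had at most 6 reads in a mouse (2, 1, 3, 6 and 0 in CD, 0, 1, 0 and 1 in DEP2). Over this list 4 of 10 factors were lower at an unadjusted p under 0.05 and 1, Bhlhe41, was higher. Mef2c and Irf5 did not differ detectably (95% interval of the log2 fold change -0.04 to 0.21 and -0.21 to 0.22, respectively). Among 20 leukocyte signalling and Fc receptor genes 11 were lower at an unadjusted p under 0.05 and 0 higher (median log2 fold change -1.67). The pan-leukocyte phosphatase Ptprc (CD45) had 3, 10, 12, 9 and 8 reads in CD and 2, 0, 1 and 1 in DEP2 (FDR = 0.026), and Ly86 had 7, 8, 5, 12 and 5 and 1, 0, 1 and 1 (FDR = 0.026). Both were lower in every treated mouse. The members with the most reads, Coro1a, Arhgdib, Unc93b1 and Lyn, had an FDR of 1.

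Few markers of other blood-borne or border cells had enough reads to be tested. Of 6 perivascular macrophage genes none was lower at an unadjusted p under 0.05 and 1, Ms4a7, was higher, from 0, 1, 0, 3 and 1 reads to 4, 2, 3 and 4 (FDR = 1). Lyve1 stood at 14.3 ± 2.03 CPM in CD and 15.4 ± 0.91 in DEP2. Among monocyte and neutrophil genes only S100a9 had an unadjusted p under 0.05, and 26 of its reads were in CD mouse 3 (0, 3, 26, 5 and 0 in CD, 0, 0, 1 and 4 in DEP2). Of 9 genes of that list 4 were tested, with a median log2 fold change of -0.45. The sum over the list was 46 ± 9.16% of the CD mean, 29.3% within RE and 175% within re mice, at no more than 7 reads in a DEP2 mouse. Lymphocyte markers gave 0 lower and 0 higher of 4 tested, from a list of 11.

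The second question was how much microglial RNA was left. The 35 genes of the 6 microglia and leukocyte lists that were lower at an unadjusted p under 0.05 and had a mean of at least 0.5 CPM in CD were described by the share of the control rate that remained, with reads summed over each group. For 18 of them under 15% remained, for 5 between 15 and 30%, and for 12 more than 30%. Of C1qa 10.1% remained (95% exact interval 5.12 to 18.3%), of Laptm5 9.44% (5.06 to 16.3%) and of Ctss 6.59% (3.64 to 11.1%). For Cx3cr1 the share was 6.21% (2.64 to 12.5%), for C1qc 5.79% (2.08 to 12.9%) and for C1qb 2.99% (0.608 to 8.93%). Neighbours in this order have overlapping counting intervals. Above 30% were Mpeg1, Sall1, Irf8, Csf1r and Flt3, among others, although Csf1r was far below 30% in FPKM. The genes were taken because they were lower in DEP2, so these shares describe them and say nothing of microglial genes in general.

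**Figure D3:**
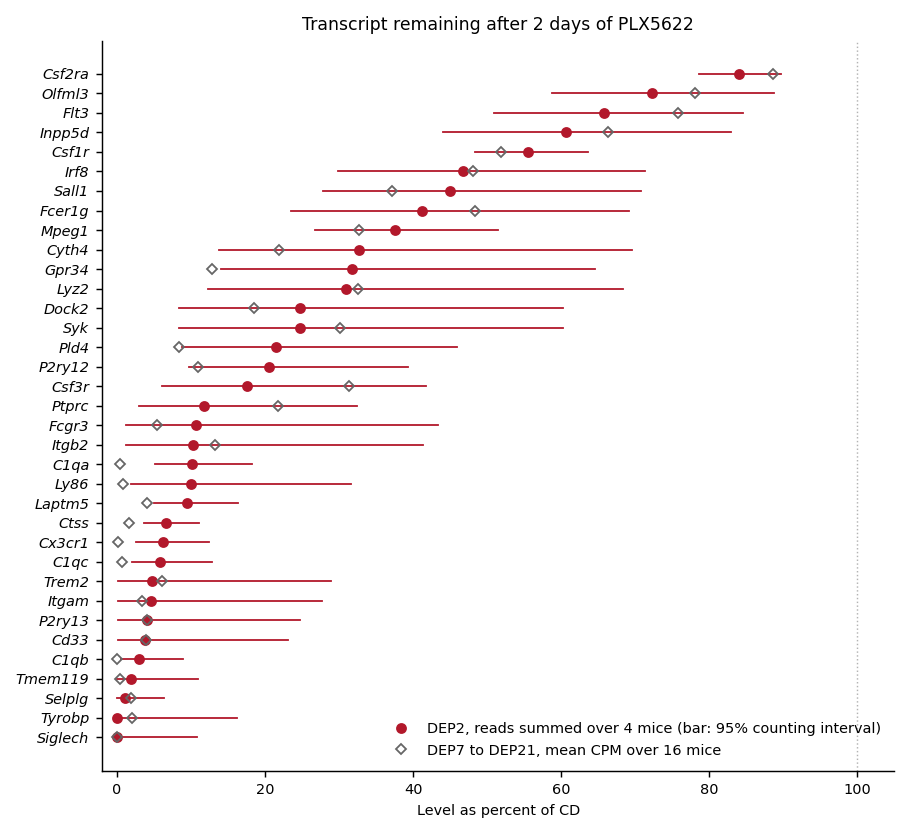
Level after 2 days of PLX5622 as percent of CD (horizontal axis) for 35 genes (vertical axis). Points are reads of the 4 DEP2 mice relative to CD with 95% counting intervals, and diamonds are the mean CPM of the 16 later mice. C1qa, Cx3cr1 and Ctss lie above their later values, and Csf1r, Irf8 and Mpeg1 lie near theirs. All are by counts, and Csf1r stood much lower in FPKM.

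The 7 genes that kept their call under every alternative fit were summed for each mouse (Ctss, Laptm5, C1qa, C1qb, C1qc, Selplg and Cx3cr1). The sum was 197, 229, 224, 302 and 180 reads in the CD mice and 15, 13, 14 and 17 reads in the DEP2 mice. It was 6.5 ± 0.723% of the CD mean in CPM (n = 4), 5.85% within RE mice and 7.96% within re mice. The treated mice differed little among themselves, from 5.49 to 7.09% of the mean of all 5 controls. In the 16 mice of DEP7 to DEP21 the sum was 0 to 9 reads (median 3), with 2 mice at zero, so no later mouse reached the lowest DEP2 mouse. In the 3 DEP5 mice it was 0.435 to 1.73% of the CD mean, also below every DEP2 mouse. These genes were chosen for their low values in DEP2. The later mice entered that choice only through the alternative fit of all 65 mice, so it was not wholly independent of them. A second set was chosen the other way round, from the 6 lists by having under 3 reads in every later mouse. It shares C1qa, C1qb, C1qc, Selplg and Cx3cr1 with the first set, so the sums are not independent. Its 27 genes summed to 201, 254, 210, 311 and 204 reads in CD and 17, 17, 25 and 17 in DEP2, which is 8.08 ± 2.02% of the CD mean in CPM. The summed level of all 78 genes of the 6 lists, most of whose reads come from genes such as Ctsb, was still 94.3 ± 3.77%.

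Gene by gene, no step from day 2 to the later mice passed the threshold. The mean of DEP7, DEP10, DEP14 and DEP21 was compared with DEP2 in 23727 genes, and 0 passed (0%). At an unadjusted p under 0.05 there were 701 lower (2.95%) and 527 higher (2.22%). DESeq2 called 0 lower and 1 higher, and the likelihood ratio test called 1 lower and 1 higher. C1qa went from 3, 2, 5 and 2 reads in DEP2 to between 0 and 1 in the 16 later mice (log2 fold change -3.85 ± 0.73 (SE), FDR = 0.1). Cx3cr1 went from 2, 1, 1 and 4 to between 0 and 1 (FDR = 0.39). No later mouse had more than 1 read of either gene. Of the 7 genes above, Selplg had too few reads to be tested in this comparison (mean 0.0292 CPM in DEP2 and 0.0534 CPM in the later mice). The other 6 were all lower at an unadjusted p under 0.05. By read counts Csf1r did not differ between day 2 and the later days (log2 fold change -0.10 ± 0.13 (SE)), nor did Mpeg1 (-0.21 ± 0.31 (SE)), beyond the spread between mice. In the deposited FPKM, given above, far less Csf1r remained on day 2 than by counts, and its later values there were not tested.

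Pseudogenes and mitochondrial genes can have near-identical copies elsewhere in the genome, so their counts are uncertain. Gm1821 is annotated as a transcribed processed pseudogene on chromosome 14 (46084028 to 46085000, plus strand, GRCm38). It had 16, 238, 30, 38 and 3 reads in CD and 9, 8, 8 and 5 in DEP2 (FDR = 0.0021), so that 1 control, mouse 2, held most of the difference. The call was absent without that mouse, and in FPKM the gene stood at 99.9% of the CD mean. The mitochondrial gene mt-Atp6 (FDR = 0.011) had 22, 165, 297, 326 and 78 reads in CD and 28, 134, 116 and 151 in DEP2, low in each re mouse, while in FPKM it stood at 105%. The mitochondrial pseudogene Gm28438 was at an FDR of 0.02 by counts and at 114% of the CD mean in FPKM.

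The third question was whether glia or neurons had changed by day 2. Gfap, the intermediate filament of astrocytes and of reactive Müller glia, was the clearest rise. It had 93, 83, 93, 101 and 82 reads in CD and 174, 154, 144 and 177 in DEP2, so that every treated mouse was above every control (log2 fold change 0.84 ± 0.11 (SE), FDR = 1.3e-05). This is a 1.8-fold increase, which passed the FDR and not the fold threshold. Within RE mice Gfap was at 171% of control and in the re mice at 199%. In FPKM it was at 175%, again without overlap. The later mice had 111 to 243 reads (median 144) and did not differ detectably from DEP2 (log2 fold change -0.10 ± 0.12 (SE), FDR = 0.94).

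Other reactive glial genes did not pass an FDR of 0.05. Of 15 tested, 5, Gfap among them, were higher and 0 lower at an unadjusted p under 0.05 (median log2 fold change 0.33). Over all tested genes 2.06% were higher and 2.41% lower. The protease inhibitor Serpina3n had 24, 22, 24, 43 and 14 reads in CD and 52, 51, 44 and 41 in DEP2 (log2 fold change 0.86 ± 0.21 (SE), FDR = 0.14). CD mouse 4 overlapped the treated mice. A2m, Fgf2 and Edn2 were the other genes with an unadjusted p under 0.05, with log2 fold changes of 0.48 ± 0.15, 0.35 ± 0.11 and 0.62 ± 0.28 (SE), all at an FDR above 0.5. The protease inhibitor A2m had 36, 53, 58, 67 and 40 reads in CD and 72, 88, 69 and 63 in DEP2, which overlapped. Lcn2, Stat3, Socs3, Osmr and Cd44 did not reach an unadjusted p of 0.05. Among 18 Müller glial genes, which include the glutamate-handling Glul and the retinoid carrier Rlbp1, 0 were lower and 0 higher. Glul was at 1750 ± 118 CPM in CD and 1740 ± 205 in DEP2 (95% interval of the log2 fold change -0.15 to 0.09). Apart from Gfap, the 6 astrocyte genes held none at an unadjusted p under 0.05.

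Dct and Fabp4 were the other genes higher at an FDR under 0.05. Dct, a melanin synthesis enzyme of pigment cells, had 6, 11, 9, 17 and 5 reads in CD and 44, 21, 18 and 20 in DEP2 (log2 fold change 1.44 ± 0.31 (SE), FDR = 0.047), with most in the re mouse. DEP2 was at 161% of CD within RE mice and at 801% in re mice. The latter rests on 1 treated mouse, so whether the rise differed between suffixes cannot be told. With the mice paired by number the FDR of Dct was 0.055. In the pigment epithelium list, of which 12 genes were tested, 5 were higher at an unadjusted p under 0.05 and 0 were lower. Dct, Tyrp1, Pmel and Ttr were among the 5. Over all tested genes 2.06% were higher and 2.41% lower. Mlana, a melanosome protein, was at zero in every control and had 4, 0, 3 and 1 reads in DEP2. It entered the test, and so the 12 genes counted above, only through these reads. The visual cycle gene Rpe65 had 0, 14, 4, 11 and 1 reads in CD and 7, 15, 13 and 9 in DEP2. The summed level of this list, most of it from Otx2 (a factor that photoreceptors and bipolar cells also express), was 281 to 352 CPM in CD and 297 to 343 in DEP2. The part of pigment cell RNA in the rise of Dct was not tested. Fabp4, a fatty acid carrier of endothelial cells, had 137, 125, 105, 128 and 153 reads in CD and 211, 203, 200 and 126 in DEP2, where mouse 4 was within the control range (log2 fold change 0.56 ± 0.12 (SE), FDR = 0.044). Of 15 endothelial and pericyte genes 2 were higher and 0 lower at an unadjusted p under 0.05, and the VEGF receptor Kdr, at a log2 fold change of 0.18 ± 0.06, did not overlap (FDR = 0.88).

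No neuronal gene of the lists passed an FDR of 0.05. At an unadjusted p under 0.05 the counts were 2 lower and 1 higher of 20 rod genes, 0 lower and 3 higher of 12 cone genes and 0 lower and 2 higher of 12 bipolar cell genes. They were 0 lower and 0 higher of 15 amacrine and horizontal cell genes, 0 lower and 0 higher of 12 ganglion cell genes and 1 lower and 0 higher of 14 synaptic genes. Over all tested genes 2.41% were lower and 2.06% higher. The list medians lay between -0.02 (synapse) and 0.06 (cones). The green cone opsin Opn1mw was the neuronal gene with the smallest p, at 776, 757, 613, 702 and 721 reads in CD and 864, 874, 718 and 844 in DEP2 (log2 fold change 0.22 ± 0.07 (SE), FDR = 0.54). For the bipolar cell calcium sensor Cabp5 the log2 fold change was 0.25 ± 0.08 (FDR = 0.61, and 0.044 with pairing). For the ganglion cell gene Nefl (95% interval of the log2 fold change -0.06 to 0.17) and the vesicular glutamate transporter Slc17a7 (95% interval of the log2 fold change -0.11 to 0.12) the intervals include zero.

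**Figure D4:**
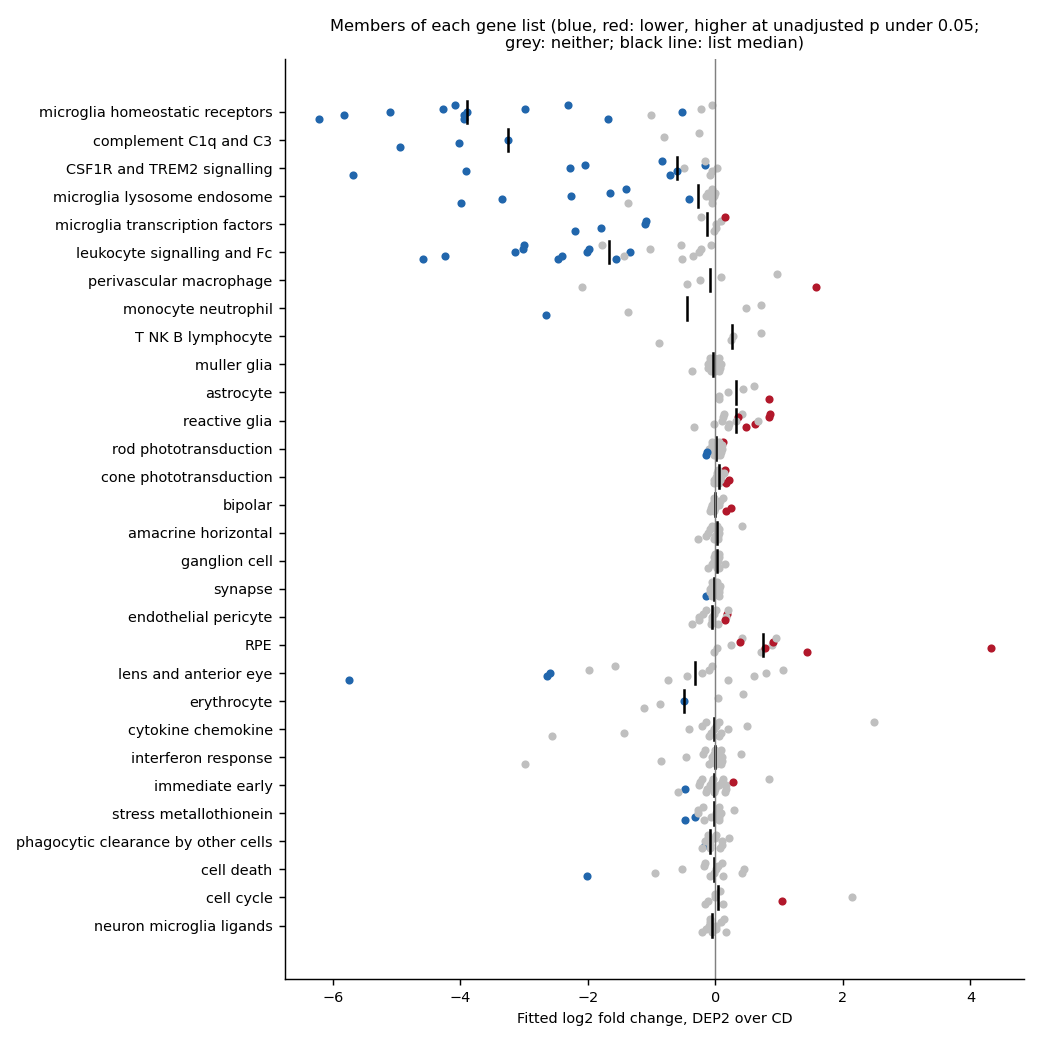
Fitted log2 fold change of DEP2 over CD (horizontal axis) for each tested member of 30 gene lists (vertical axis). Blue and red points are lower and higher at an unadjusted p under 0.05, grey points neither, and black lines are list medians. The homeostatic receptor, C1q and leukocyte lists lie to the left of zero, and the neuronal and Müller glial lists are centred on it.

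Lists for inflammation and clearance held few genes at an unadjusted p under 0.05. Over all tested genes 2.41% were lower and 2.06% higher. Of 15 cytokine and chemokine genes 0 were lower and 0 higher at an unadjusted p under 0.05, as were 0 and 0 of 19 interferon response genes. Cell death genes gave 1 lower and 0 higher of 13, cell cycle genes 0 lower and 1 higher of 8 and genes for phagocytic clearance by other cells 1 lower and 0 higher of 14. Immediate early genes gave 1 lower and 1 higher of 20, stress and metallothionein genes 2 lower and 0 higher of 14, and neuronal ligands of microglial receptors 0 lower and 0 higher of 11. Fosb, an activity-induced transcription factor, had 45, 65, 47, 44 and 43 reads in CD and 35, 39, 29 and 40 in DEP2 (log2 fold change -0.47 ± 0.17 (SE), FDR = 0.96), while for Fos the log2 fold change was 0.27 ± 0.10 (SE; FDR = 1). Cx3cl1, the fractalkine that CX3CR1 binds, stood at 111 ± 13.1 CPM in CD and 102 ± 8.39 in DEP2 (95% interval of the log2 fold change -0.24 to 0.04). Lens and anterior eye genes gave 3 lower and 0 higher of 14, with the crystallin reads mostly in CD mouse 4 (Cryaa had 2, 0, 2, 50 and 0 in CD and 6, 0, 0 and 1 in DEP2). Red blood cell genes gave 1 lower and 0 higher of 5.

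Lcor, which encodes a corepressor of ligand-bound nuclear receptors, was lower on day 2 than in controls and than in later mice at an FDR under 0.05. It had 156, 162, 216, 180 and 144 reads in CD and 135, 116, 104 and 89 in DEP2, with every treated mouse below every control (log2 fold change -0.64 ± 0.13 (SE), FDR = 0.021). In the later mice it had 120 to 248 reads, and the mean of those groups was higher than DEP2 (log2 fold change 0.83 ± 0.14 (SE), FDR = 0.017). Both comparisons use the same 4 DEP2 mice. In FPKM Lcor was at 62.2% of the CD mean. Of the other genes outside the lists, the transcription factor gene Etv4 had 96, 121, 111, 131 and 97 reads in CD and 74, 93, 63 and 93 in DEP2, with no overlap (FDR = 0.14). Calr, a chaperone of the endoplasmic reticulum, and Sfpq, a splicing factor, had log2 fold changes of -0.31 ± 0.07 and -0.34 ± 0.08 (SE). Both were short of an FDR of 0.05 (0.083 and 0.13). With mice paired by number, which is an assumption, the FDR was 0.0019 and 1.3e-05. Genes higher without overlap, at a share of 0.526% of all tested, included Rfx5 (log2 fold change 0.28 ± 0.07 (SE), FDR = 0.24) and Gm13029 (FDR = 0.14).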

How the data were processed

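Retinal RNA was selected for polyA, per the labels, and sequenced on a BGISEQ-500. The authors aligned the reads to mm10 with HISAT2, made the deposited counts per gene with HTSeq and the deposited FPKM values with StringTie (versions and HTSeq strand setting not given in the sources used here). FPKM served as a check without a test. Samples were grouped by their labels. Of 50686 genes counted, a gene entered the test when at least 0.5 of the CD or of the DEP2 mice had a read, with edgeR 4.0.16 in R 4.3.3 (TMM, quasi-likelihood F test, group plus suffix). Genes were called at an FDR (Benjamini-Hochberg) under 0.01 with a change of over 1 log2 unit, and the FDR beside each gene is from this fit. An SE is the fold change divided by the root of F. The fit was also run on counts simulated from its own estimates. Of 77 genes given a change of 1.5 log2 units, 69 were recovered. Changes were placed only in genes above a minimum mean count, so genes with the fewest reads were not covered. GENCODE M21 and RefSeq tables gave symbols for 50376 of the IDs, and positions.

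The members, the 31 gene lists and the tests were chosen with earlier results of these data known. Named by rule were the called genes, 9 chosen genes, the 4 members with the most reads of each microglia or leukocyte list, the members of smallest p and of most reads in every other list, and up to 8 further genes in each direction at a mean of 1 CPM or more without overlap among RE mice. Other genes in the text were picked after their values were seen, as were the sums over 7 and 27 genes. Alternatives were DESeq2 1.42.0, a likelihood ratio test, RLE factors, 2 other filters, no suffix term, RE mice alone, all 65 mice, a replicate block and leaving out each mouse. Deviations from the group mean were correlated across 12316 expressed genes. For CD and DEP2 mice of the same number r was 0.746, 0.119, 0.655 and 0.154 for numbers 1 to 4. For mice of different number it was -0.598 to 0.374. CD mouse 2 correlated more with DEP2 mouse 4 (0.374), and CD mouse 4 more with DEP2 mouse 2 (0.184). Both mice numbered 1 are re mice. The replicate block took the numbers as pairs, which is an assumption, as the labels do not say what they mark. A floor of 3 reads is 0.35 to 0.402 per 1000000 of a mouse's total count. No value column was left unmapped. Binomial intervals are exact at 95%. Some members of the lists are counted but not reported singly here, and 1 of them was left out of the shares remaining on day 2.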

Additional observations from a re-analysis of the deposited data

Results flagged for a closer look

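In 8 of 58 groups of 4 or 5 mice examined, 1 mouse stood apart from the others by Dixon's criterion. The criterion marks about 1 in 20 groups by chance for continuous values, a rate that does not hold where all other mice are at zero. In 4 of the 8 the mouse was the only one of DEP2 with a read of the gene, so that a single read was enough: Selplg at 0.117 CPM in mouse 4, Tmem119 at 0.117 CPM in mouse 4, Itgam at 0.129 CPM in mouse 3 and Trem2 at 0.119 CPM in mouse 2. Sall1 was at 1.16 CPM in DEP2 mouse 3 and at 0.702 to 0.78 CPM in the other 3. Gm1821 was at 28.2 CPM in CD mouse 2 and at 0.395 to 4.45 CPM in the other controls. CD mouse 3 had the least Il34, 3.47 CPM against 5.1 to 5.53 CPM. It also had the highest sum of monocyte and neutrophil genes, 5.14 CPM against 0.386 to 1.07 CPM, most of it S100a9.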

How the results depend on the processing

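The count of genes lower in DEP2 than CD was 12. It was 8 without the suffix term, 7 among RE mice alone, 21 by the likelihood ratio test, 26 without the detection filter, 23 at an FDR under 0.05 without a fold threshold, and 7 to 12 when 1 mouse was left out, with 7 without CD mouse 3 and 8 without CD mouse 2, CD mouse 4 or DEP2 mouse 4. Leaving out CD mice 3 and 4 together, chosen after seeing the data, left 8. The count of genes higher was 1 by the likelihood ratio test, 1 without the filter and 3 at an FDR under 0.05 without a fold threshold. With the mice paired by number as a replicate block, 16 genes were lower, among them all 12 and in addition P2ry12, Capn11, Gm28438 and Gm36989, and 0 were higher. CD mouse 2M has no partner and was left out of that fit. For the later mice against DEP2 the block gave 0 in each direction. There, 1 gene was lower by the likelihood ratio test, 5 without the filter and 1 for DEP7 alone. Higher were 1 gene by DESeq2, 1 by the likelihood ratio test, 3 without the filter, 3 for DEP7 alone, 3 at an FDR under 0.05 without a fold threshold, and 0 to 2 when 1 mouse was left out (2 without DEP2 mouse 1). The summed level of the 6 microglia and leukocyte lists was 94.3% of CD, 90.1% in re mice alone (1 treated mouse) and 8.08% for members with under 3 reads in every later mouse, a rule that keeps other genes. Of 1859 alternative values of named genes, 47 lost a call, 8 gained one and none that was called changed direction, while 63 values without a call changed sign. In 35 cases the log2 ratio of mean deposited FPKM, taken without a suffix term, was more than 1 SE from the fitted value. That criterion also takes in small differences. Csf1r, Gm1821 and mt-Atp6 were among the 35, and the cause was not tested. Genes with few reads per mouse limit what these data can show: a single read in DEP2 is the whole level of Selplg or Tmem119.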

Other observations

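Mt2, which binds metal ions, had 43, 77, 80, 96 and 91 reads in CD and 62, 57, 44 and 63 in DEP2 (log2 fold change -0.47 ± 0.17 (SE), FDR = 0.9). The groups overlapped. Dlg4, which encodes the postsynaptic scaffold PSD-95, had 8200, 8837, 9609, 9426 and 8719 and 8035, 8797, 7797 and 8108 reads (log2 fold change -0.15 ± 0.06 (SE), FDR = 1). Ccnb2, a cyclin of mitosis, had 6, 4, 3, 6 and 7 and 10, 15, 8 and 9 reads, without overlap (log2 fold change 1.04 ± 0.38 (SE), FDR = 0.96). None of them passed an FDR of 0.05, and they were picked after their values were seen.

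Levels in the later depletion groups add to the genes that were high on day 2. Serpina3n was at 2.61 to 11.5 CPM in the 16 mice of DEP7 to DEP21 (median 4.81), against 3.13 ± 1.18 CPM (SD, n = 5) in CD and 5.82 ± 0.818 (SD, n = 4) in DEP2. Dct, high in DEP2, was at 0.784 to 11.3 CPM in the later mice (median 1.46) and at 1.18 ± 0.527 in CD. Fabp4 was at 10.6 to 29.3 CPM later (median 23.4) and at 16.2 ± 2.65 in CD. In all 3 genes the later range overlapped that of DEP2.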
